A study of Mus musculus with 12 samples.

Results

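FlipFlop CD8 T cells were compared with B6 CD4 T cells, the pair of sorted populations that carry different coreceptors on the surface but belong to the helper lineage in both strains. B6 CD4 T cells came from lymph nodes (LN) of female C57BL/6 (B6) mice of 10 weeks with unaltered coreceptor loci. FlipFlop CD8 T cells came from LN of female FlipFlop mice of 14 weeks, in which both copies of chromosome 6 carry a Cd8a locus altered to encode CD4 and a Cd4 locus altered to encode CD8.1αβ. The Cd4 locus was targeted in embryonic stem cells of B6 origin, the Cd8a allele came from an earlier line named 4in8 that was made in the 129R1 embryonic stem cell line, of another strain than B6, and a crossover joined both alleles on chromosome 6. Strain, alleles and age therefore changed together, and their parts in a difference cannot be told apart. The comparison used 6 of the 12 libraries of the series, 3 in each group. Of the 12809 genes in the deposited table, 11325 reached at least 1 CPM (read counts scaled to library size) in at least 3 of these 6 libraries and were tested. The remaining 1484 genes were left out. The other 6 libraries, FlipFlop CD4 and B6 CD8 T cells of the cytotoxic lineage, served only for a second strain difference that shares no library with the main one.

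T cells that recognize peptides on MHC class II molecules normally express CD4 and become helper cells under the transcription factor ThPOK, encoded by Zbtb7b. T cells that recognize MHC class I molecules normally express CD8 and become cytotoxic cells under Runx3. Helper cells provide CD40 ligand and cytokines to other immune cells, and the helper pool of a lymph node also holds Foxp3-expressing regulatory T (Treg) cells, follicular helper cells and memory cells beside naive cells. In FlipFlop mice the Cd4 locus, which helper cells keep active, encodes the CD8 protein, so a helper T cell is sorted as a CD8 T cell.

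The 6 libraries held 27200000 to 33100000 reads on the listed genes, so that the floor of 3 reads, which a count of 0 still allows, lay at 0.0857 to 0.113 CPM and covers counting error only. The labels do not say whether libraries of a group came from separate mice, so p-values measure the spread between these libraries. In sorted bulk RNA, a change in the number of cells of one type and a change in RNA per cell cannot be told apart. T cell markers were high in all 6 libraries, with 401, 385 and 351 CPM of Cd3e in B6 CD4 and 362, 339 and 336 CPM in FlipFlop CD8 libraries. B6 CD4 library 1 stood apart from the other 2 libraries of its group, with 63 genes more than 2-fold below both of them, among 9265 genes averaging at least 5 CPM. B6 CD4 library 3 stood apart in 28 of these genes, higher in 27 of them, and for 14 of the 28 the same library number stood apart in B6 CD8.

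Most genes had similar levels in both groups. On the log2(CPM + 0.5) scale, on which all differences are given, 9481 of the 11325 genes (83.7%) differed by less than 0.5. By limma, 1530 genes (13.5%) passed an adjusted p-value of 0.05, of which 951 (8.4%) were higher and 579 (5.11%) lower in FlipFlop CD8 than in B6 CD4 T cells. At an unadjusted p-value under 0.0001 and more than 5-fold, 45 genes (0.397%) passed, 38 higher and 7 lower, and 37 and 15 without FlipFlop CD8 library 2. The groups did not overlap in 4986 genes (44%). Rescaling the columns to the same total, which removes the TMM factor (a correction of library size for composition), moved the differences by 0.16 on the log2 scale. It gave 1635 higher and 252 lower genes, so that 86.6% of calls were rises in place of 62.2%. With the spread shared over all 12 libraries, calls went the other way in balance, with 1521 higher and 1685 lower genes. The number of calls was 642 (184 lower) without FlipFlop CD8 library 2, 756 (185 lower) without library 3 and 892 (306 lower) without library 1. Without B6 CD4 library 2 it was 1042 (288 lower).

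By class of gene, the called shares were compared as counts with no test. Of 10504 protein-coding genes, 890 were higher and 507 lower (13.3% in all), and 22 (0.209%) passed the 5-fold limit. Of 250 processed pseudogenes, copies of spliced transcripts in the genome, 25 were higher and 15 lower (16% in all), but 15 (6%) passed the 5-fold limit, all of them higher in FlipFlop CD8 T cells. Of 108 T cell receptor (TCR) gene segments, 6 were higher and 16 lower. The remaining calls were 61 of 392 non-coding and other genes, 7 of 59 other pseudogenes and 3 of 12 immunoglobulin segments.

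**Figure D1:**
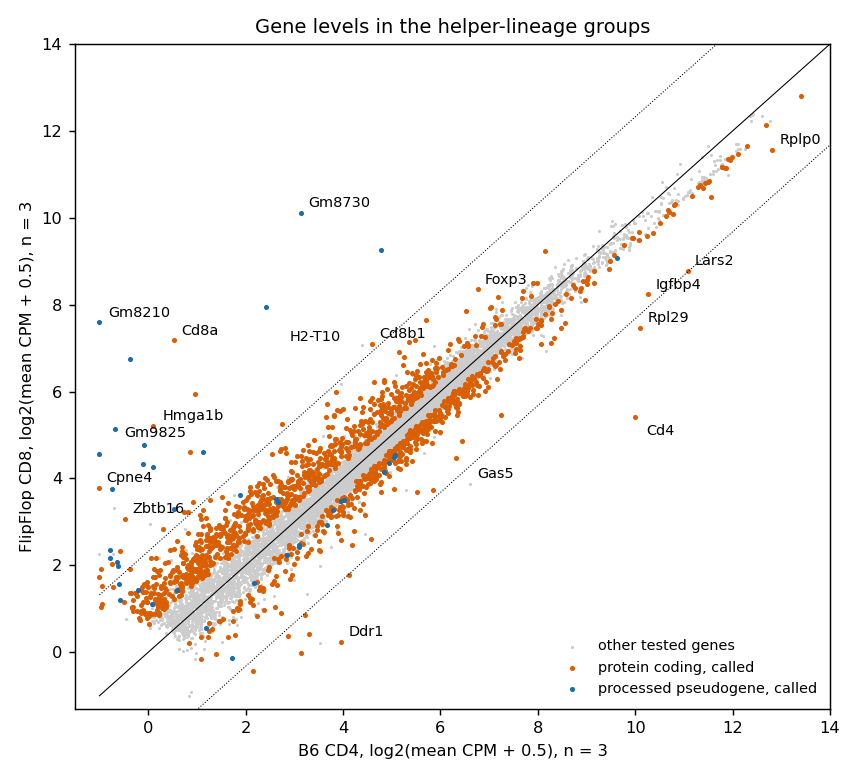
Mean level of every tested gene in B6 CD4 (horizontal) and FlipFlop CD8 libraries (vertical), each as log2(mean CPM + 0.5) of 3 libraries; the solid line marks equal levels and the dotted lines 5-fold differences. Orange and blue points are protein-coding genes and processed pseudogenes with an adjusted p under 0.05, and several pseudogenes such as Gm8730 and Gm8210 lie far above the upper dotted line while Cd4 lies below the lower one.

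Of the coreceptor genes, Cd4 was lower and Cd8a and Cd8b1 were higher in FlipFlop CD8 T cells. Cd4 measured 961, 1090.3 and 1016 CPM in the B6 CD4 libraries and 40.9, 42.2 and 43.6 CPM in the FlipFlop CD8 libraries, a difference of -4.58 (standard error 0.08, adjusted p = 2.2e-07). Cd8a measured 0.827, 0.42 and 1.59 CPM in B6 CD4 and 159, 139 and 138 CPM in FlipFlop CD8 libraries (6.73, standard error 0.26, adjusted p = 1.3e-05). The groups were far apart for both genes, and the labels and the coreceptor transcripts went the same way in every library. Cd8b1, which encodes the CD8β chain, rose from 28.1, 20.7 and 22.7 CPM to 151, 136 and 125 CPM (2.51, adjusted p = 4.8e-05). In the cytotoxic lineage Cd8a measured 1496, 1499.6 and 1472 CPM in B6 CD8 and 0.854, 0.942 and 0.967 CPM in FlipFlop CD4 libraries, whereas Cd8b1 was high in both, at 1893, 1924 and 1839 CPM and 1962, 1887 and 1639 CPM. The deposited values count reads per gene, so reads of the altered loci and of the endogenous genes cannot be told apart.

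Transcription factors that set lineage were called about as often as all genes (13.5%). Of 23 lineage factors tested, 2 were higher and 1 lower, and the median difference was 0.02, compared with -0.01 over all tested genes. Zbtb7b measured 203, 193 and 192 CPM in B6 CD4 and 162, 171 and 172 CPM in FlipFlop CD8 libraries. The libraries did not overlap, but the difference of -0.22 (95% interval -0.39 to -0.05) had an adjusted p of 0.081. In the cytotoxic lineage Zbtb7b measured far less, 1.5, 1.16 and 1.99 CPM in B6 CD8 and 1.87, 2.21 and 2.79 CPM in FlipFlop CD4 libraries. Gata3, which acts in CD4 development and in type 2 helper cells, differed by 0.28 (adjusted p = 0.065) and Runx3 by -0.16 (adjusted p = 0.38). The members that passed were Id2, an inhibitor of E proteins (0.82, adjusted p = 0.0023), Myb (0.70, adjusted p = 0.023) and Lef1, a factor of naive T cells, which fell from 477, 449.5 and 481 CPM to 297, 325 and 327 CPM (adjusted p = 0.0056). The adjusted p of Myb was 0.078 without FlipFlop CD8 library 2 and 0.064 without FlipFlop CD8 library 3.

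Helper effector genes included rises and a single fall. Of 21 tested, 9 were higher and 1 lower, with a median of 0.51. The gene that fell was Cd40lg, which encodes CD40 ligand. It measured 72.7, 77.9 and 74.4 CPM in B6 CD4 and 58.6, 51.3 and 52.8 CPM in FlipFlop CD8 libraries, a difference of -0.47 (standard error 0.08, adjusted p = 0.011). Rora, a nuclear receptor of memory and effector cells, rose from 7.21, 14.2 and 19.5 CPM to 51.5, 42.1 and 35.4 CPM (1.71, adjusted p = 0.014). The costimulatory receptor Icos rose by 0.92 (adjusted p = 0.0017), and the cytokine Il4 rose by 0.92 (adjusted p = 0.036) at levels of at most 1.8 CPM. Of 18 genes of follicular helper cells, 8 were higher and none lower, with a median of 0.33. Among them Maf rose by 0.87 (adjusted p = 0.012) and Pdcd1, encoding PD-1, by 0.78 (adjusted p = 0.014). The defining receptor Cxcr5 measured 41.7, 70.1 and 43.6 CPM and 105, 79.8 and 76.6 CPM (0.77, adjusted p = 0.0499). Single libraries decided several of these calls. With FlipFlop CD8 library 1, 2 or 3 left out, the helper effector list had 4, 4 and 6 rises and the follicular list 3 each time, and the latter had 5 without B6 CD4 library 3. The adjusted p of Cd40lg was 0.064 without FlipFlop CD8 library 2 and 0.052 without FlipFlop CD8 library 3, 0.057 with the spread shared over all 12 libraries and 0.0528 without empirical Bayes moderation, so that its call was lost in each. For Rora it was 0.051 without FlipFlop CD8 library 1, for Maf 0.053 without FlipFlop CD8 library 2 and for Pdcd1 0.051 without FlipFlop CD8 library 1. For Il4 it was at least 0.05 when any of 5 of the 6 libraries was left out (up to 0.13, without FlipFlop CD8 library 3), and for Cxcr5 at least 0.05 when any of 5 of the 6 libraries was left out (up to 0.12, without FlipFlop CD8 library 2).

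Genes of Treg cells had the largest share of rises of all lists examined. Of 23 tested members, 21 were higher and none lower, with a median of 1.08. Foxp3, the defining transcription factor, measured 93.1, 128 and 103 CPM in B6 CD4 and 305, 362 and 312 CPM in FlipFlop CD8 libraries, a difference of 1.60 (standard error 0.13, adjusted p = 0.0006). Every FlipFlop CD8 library lay more than 2-fold above every B6 CD4 library. Ikzf2, which encodes Helios, rose from 26.5, 41.6 and 36.9 CPM to 102, 135 and 125 CPM (1.79, adjusted p = 0.0013). Nrp1, a surface receptor of thymus-derived Treg cells, rose from 26.2, 49.8 and 36.7 CPM to 112, 114 and 105 CPM (1.59, adjusted p = 0.0035). Il2ra, the α chain of the interleukin-2 receptor, rose by 1.32 (adjusted p = 0.0012), and the inhibitory receptor Ctla4 by 1.23 (adjusted p = 0.00053). Klrg1 rose by 1.69 (adjusted p = 0.035), but its 46.3, 14.7 and 15.4 CPM in FlipFlop CD8 were uneven between libraries, and its adjusted p was at least 0.05 when any of 3 of the 6 libraries was left out (up to 0.079, without B6 CD4 library 2). The other Treg genes named here passed whichever library was left out. Leaving out 1 library gave 15 to 21 rises and no fall in the list, and without empirical Bayes moderation there were 10 rises.

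Most memory and effector genes tested were also higher. Of 26 memory and effector genes, 17 were higher and none lower, with a median of 0.99. Cd44, the usual marker of antigen-experienced cells, rose from 68.9, 95.2 and 81.3 CPM to 159.6, 148 and 134 CPM (0.85, adjusted p = 0.0066). Ahnak, a large scaffold protein, rose from 29.6, 67.6 and 57.7 CPM to 214, 200.5 and 183 CPM (2.02, adjusted p = 0.0042). B6 CD4 library 1 was the lowest for this gene, and all FlipFlop CD8 libraries were higher. The chemokine receptor Cxcr6 rose from 14.3, 25.1 and 34 CPM to 94.8, 67.3 and 61.5 CPM (1.65, adjusted p = 0.012). Ly6c2, whose reads can be shared with its neighbor paralog, rose by 2.13 (adjusted p = 0.018), with an adjusted p of 0.059 without FlipFlop CD8 library 1 and 0.071 without FlipFlop CD8 library 3. Markers of innate-like T cells were also higher, with a summed level of 314 to 379 CPM in B6 CD4 and 648 to 773 CPM in FlipFlop CD8 libraries, and their part in these rises was not tested. Without B6 CD4 library 1, 16 of the 26 genes were called, and without FlipFlop CD8 libraries 1 and 2 there were 11 and 10. Without empirical Bayes moderation 3 were called, and the adjusted p was 0.0731 for Cd44, 0.0753 for Ahnak, 0.11 for Cxcr6 and 0.127 for Ly6c2.

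Of 19 genes of naive state and lymph node homing, 6 were lower and 1 higher, with a median of -0.19. Igfbp4, a binding protein of insulin-like growth factors, fell from 1392, 1294 and 995 CPM to 338, 289 and 281 CPM (-2.01, standard error 0.14, adjusted p = 0.00031). Dapl1 fell by 1.02 (adjusted p = 0.0038). Ccr7, the receptor that guides T cells into lymph nodes, fell from 823, 738 and 713 CPM to 577, 571 and 547 CPM (adjusted p = 0.023). Ccr9, a receptor for homing to the small intestine, went up from 11.8, 17.2 and 12 CPM to 40.3, 48.1 and 42.4 CPM (1.66, adjusted p = 0.001). The adjusted p of Ccr7 was at least 0.05 when any of 4 of the 6 libraries was left out (up to 0.1, without FlipFlop CD8 library 2). The list had 3 falls without FlipFlop CD8 library 1 or 2, and 3 with the TMM factor removed.

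Called genes of cell division were higher in FlipFlop CD8 T cells. Of 30 cell cycle genes, 21 were higher and none lower, with a median of 0.97. Mki67, which encodes the proliferation marker Ki-67, rose from 7.18, 16.5 and 13.1 CPM to 46.5, 63.9 and 44.6 CPM, a difference of 2.09 (standard error 0.28, adjusted p = 0.0042). Every FlipFlop CD8 library exceeded the highest B6 CD4 library by more than 2-fold. The mitotic genes Cenpf, Aurkb and Ccnb1 rose by 1.77, 1.56 and 1.40 (adjusted p = 0.02, 0.0077 and 0.014). FlipFlop CD8 library 2 was the highest for Mki67, and without it 10 of the 30 genes were called. Without library 1 there were 14 rises and 1 fall, and without B6 CD4 library 1 there were 21 rises. The adjusted p of Cenpf was 0.072 without FlipFlop CD8 library 2 and 0.068 without FlipFlop CD8 library 3. Without empirical Bayes moderation none of the 30 was called, and with the spread shared over all 12 libraries there were 22 rises and 2 falls.

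**Figure D2:**
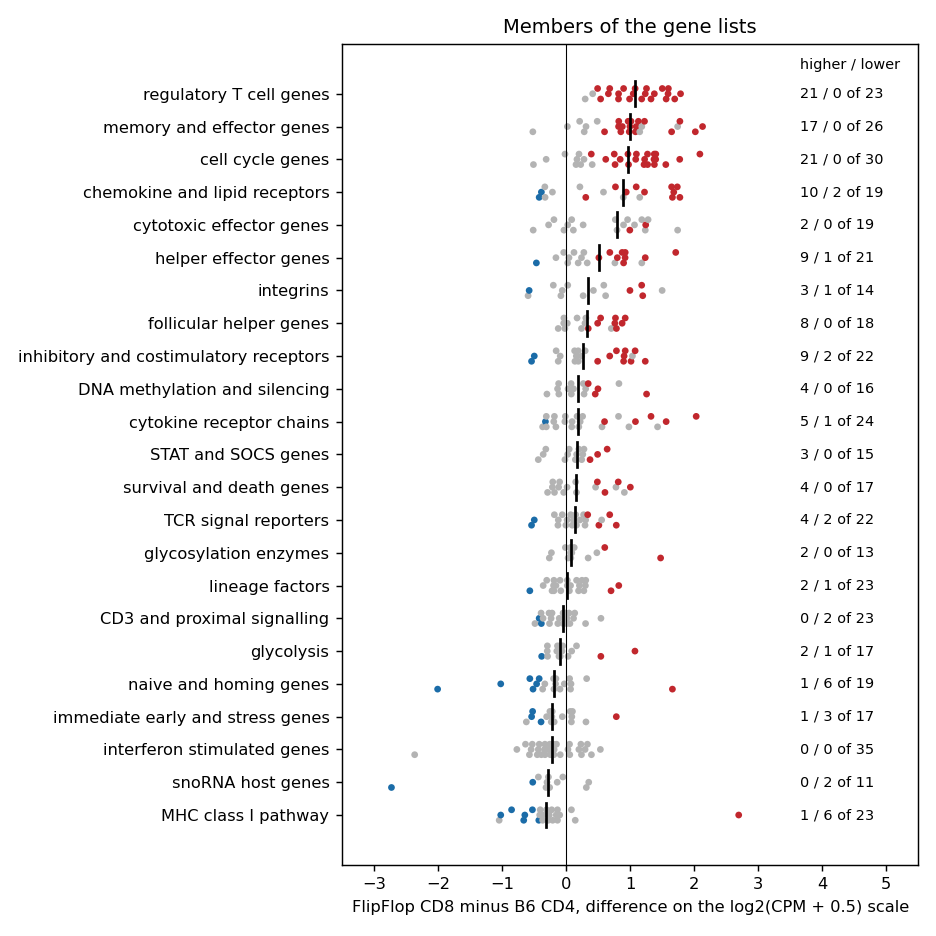
FlipFlop CD8 minus B6 CD4 T cells, as a difference on the log2(CPM + 0.5) scale, for each tested member of the gene lists; each point is a gene, red and blue points passed an adjusted p of 0.05, grey points did not, and black bars are list medians. The columns at the right give the numbers higher and lower of the number tested, led by Treg genes with 21 of 23 higher.

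Called receptors for chemokines, cytokines and matrix were mostly higher. Of 19 chemokine and lipid receptors, 10 were higher and 2 lower, with a median of 0.89. Ccr2 rose from 7.7, 16.7 and 18.1 CPM to 52.4, 47.2 and 41.1 CPM (1.78, adjusted p = 0.0086). Gpr15, a receptor for homing to the colon, rose from 3.53, 4.81 and 2.88 CPM to 15.2, 12.3 and 12.8 CPM (1.73, adjusted p = 0.0015). Of 24 cytokine receptor chains, 5 were higher and 1 lower, with a median of 0.18. Il1r2, a decoy receptor of interleukin-1, rose from 5.41, 6.78 and 3.86 CPM to 27.5, 21.7 and 20.1 CPM (2.03, adjusted p = 0.0013), and Il2rb, a chain shared by the receptors of interleukin-2 and interleukin-15, from 249, 307 and 296 CPM to 646, 624 and 533 CPM (1.08, adjusted p = 0.0017). Of 14 integrin genes, 3 were higher and 1 lower, with a median of 0.34. Itgae, encoding CD103, rose by 1.18 (adjusted p = 0.014) and Itgb1 from 134, 158 and 141 CPM to 322, 299 and 246 CPM (adjusted p = 0.0027), whereas Itgb3 fell by 0.58 (adjusted p = 0.011). Among these genes, the call of Itgae was the exception that depended on a library, with an adjusted p of 0.056 without FlipFlop CD8 library 2. Without FlipFlop CD8 library 1 or 2 there were 6 rises of chemokine and lipid receptors and 3 of cytokine receptor chains, and integrin rises were 2 and 1. No chemokine and lipid receptor was lower without FlipFlop CD8 library 1 or 3, without B6 CD4 library 2 or with the TMM factor removed. Cytokine receptor chains had no fall when any library but B6 CD4 library 1 was left out, and 3 without that one. Without B6 CD4 library 1 the integrin list had 5 rises, 2 falls and a median of 0.18.

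The number of TCR signaling genes called depended on the fit and on single libraries. Of 23 genes of CD3 and proximal signaling, none was higher and 2 were lower, with a median of -0.05. Among them was Cd247, encoding the ζ chain (-0.42, adjusted p = 0.025). Lck, the kinase that binds both coreceptors, differed by -0.05 (95% interval -0.26 to 0.17, adjusted p = 0.74). Of 22 genes that report TCR signal strength, 4 were higher and 2 lower, with a median of 0.13. Cd5, a surface protein that tracks self-reactivity, fell from 576, 517 and 462 CPM to 359, 348 and 357 CPM (-0.54, standard error 0.10, adjusted p = 0.013). Spry1 and Irf4 rose by 0.78 and 0.51 (adjusted p = 0.033 and 0.041), and the immediate reporter Nr4a1 differed by 0.16 (adjusted p = 0.36). Of 22 inhibitory and costimulatory receptors, 9 were higher, among them Tigit by 1.08 (adjusted p = 0.0045), and 2 were lower, with a median of 0.27. Without FlipFlop CD8 library 1, 2 or 3 there were 6, 7 and 6 rises and 2, 0 and 1 falls of these receptors, and without empirical Bayes moderation 3 rises and no fall. Apart from Tigit, the calls named here were close to the threshold. The adjusted p was at least 0.05 when any of 3 of the 6 libraries was left out (up to 0.12, without FlipFlop CD8 library 2) for Cd247 and 0.066 without FlipFlop CD8 library 2 and 0.051 without FlipFlop CD8 library 3 for Cd5. It was at least 0.05 when any of 4 of the 6 libraries was left out (up to 0.072, without FlipFlop CD8 library 3) for Spry1 and at least 0.05 when any of 4 of the 6 libraries was left out (up to 0.15, without FlipFlop CD8 library 2) for Irf4. With the TMM factor removed, 1 of the 23 signaling genes was higher and none lower. Without B6 CD4 library 2 or FlipFlop CD8 library 2 or 3 none was called, without FlipFlop CD8 library 1 there was 1 fall, and with the spread shared over all 12 libraries there were 9. The TCR signal list had 1 rise and no fall without FlipFlop CD8 library 2, 1 of each without library 3, and 2 of each without library 1 or without B6 CD4 library 2 or 3. In the fit over all 12 libraries it had 6 rises and 2 falls.

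**Figure D3:**
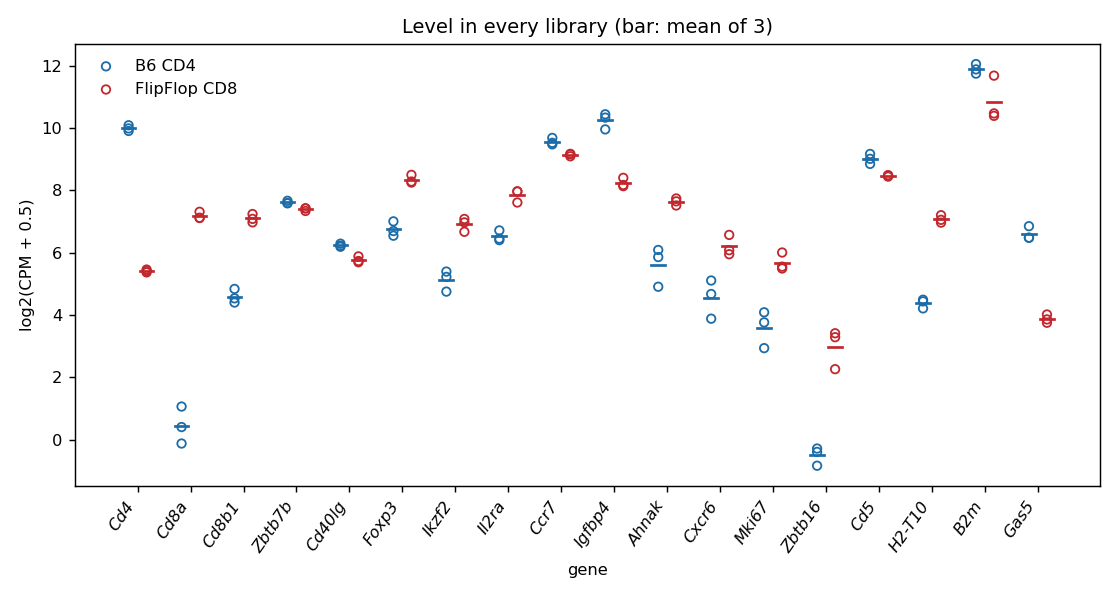
Level of 18 genes in each of the 3 B6 CD4 (blue) and 3 FlipFlop CD8 libraries (red), as log2(CPM + 0.5), with a bar at the group mean. The 18 genes were chosen, and the groups do not overlap for any of them, as for 44% of all tested genes. Prf1 and Eomes, which overlap, are not drawn. B2m shows FlipFlop CD8 library 1 at 3290.2 CPM near the B6 CD4 libraries and the other 2 libraries below.

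Cytotoxic genes tested gave few calls, at a share near that of rises over all genes (8.4%). Of 19 tested, 2 were higher and none lower, although the median was 0.79. The median was 0.39 without FlipFlop CD8 library 1, and the list had 1 rise without library 1 or 3. Prf1, encoding perforin, measured 52.7, 61 and 66.3 CPM in B6 CD4 and 64.4, 47.6 and 39.1 CPM in FlipFlop CD8 libraries (adjusted p = 0.3). Eomes, a factor of cytotoxic and memory cells, measured 6.5, 6.65 and 8.18 CPM and 21.1, 7.41 and 12 CPM (adjusted p = 0.13). Both genes overlapped between the groups, and FlipFlop CD8 library 1 was the highest for Eomes. The 2 that passed were Klrk1, encoding the receptor NKG2D, at 0.751, 1.65 and 1.59 CPM and 3.54, 3.11 and 4.6 CPM (1.24, adjusted p = 0.017), and Crtam (0.99, adjusted p = 0.011). The adjusted p of Klrk1 was 0.05 without FlipFlop CD8 library 1 and 0.069 without FlipFlop CD8 library 3, and the list had 5 rises with the TMM factor removed.

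Called genes of antigen presentation by MHC class I were mostly lower. Of 23 tested, 6 were lower (26.1%, beside 5.11% over all genes), 1 was higher and 16 were not called, with a median of -0.31. H2-M3, which presents formylated peptides, fell from 44.3, 37.1 and 46 CPM to 22, 20.9 and 18.9 CPM (-1.02, adjusted p = 0.0017), and H2-T23, encoding Qa-1, from 534, 416 and 543 CPM to 301, 266 and 255 CPM (-0.85, adjusted p = 0.006). H2-T10, a class I gene of the same chromosome 17 cluster that GENCODE lists as a polymorphic pseudogene, rose from 22, 18.1 and 21.2 CPM to 147, 133 and 125 CPM (2.69, standard error 0.10, adjusted p = 1.3e-05). Class I genes are near-identical paralogs, so the split of reads between them is uncertain. B2m, the shared light chain, measured 3781, 3442 and 4257 CPM and 3290.2, 1421 and 1345 CPM (-1.05, adjusted p = 0.068). FlipFlop CD8 library 1 was near the B6 CD4 libraries and the other 2 were more than 2-fold lower, and the same library number stood apart in FlipFlop CD4, at 3873, 1618 and 1685 CPM. Of 35 interferon-stimulated genes, none passed by limma in either direction, with a median of -0.23. At an unadjusted p under 0.05, 6 were lower, and at the adjusted p 1 was higher without B6 CD4 library 3. With the spread shared over all 12 libraries 3 were lower. Single libraries stood out in this list, whose summed level was 7068 CPM in B6 CD4 library 3 beside 4299.7 and 4085 CPM in the other 2, and 3479 to 4579 CPM in FlipFlop CD8 libraries. Ifit3, an interferon-induced antiviral gene chosen after its values were seen, measured 32.6, 27.6 and 56.8 CPM in B6 CD4 and 19.7, 17.1 and 66.8 CPM in FlipFlop CD8 libraries (-0.39, adjusted p = 0.6), with library 3 the highest in both groups. When FlipFlop CD8 library 1, 2 or 3 was left out, the MHC class I list had 6, 2 and 2 falls. It had 3 without B6 CD4 library 3 and 3 with the TMM factor removed.

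Smaller lists of signaling, metabolism and RNA genes are set beside the shares over all tested genes, 8.4% higher and 5.11% lower. Among 17 immediate early and stress genes, 1 was higher (5.88%) and 3 were lower (17.6%), and Fos differed by -0.22 (adjusted p = 0.58). Of 17 survival and death genes 4 were higher (23.5%), and of 16 genes of DNA methylation and silencing 4 (25%). Of 15 STAT and SOCS genes 3 were higher (20%), and of 13 glycosylation enzymes 2 (15.4%). None was lower in these lists, with medians of 0.15, 0.19, 0.16 and 0.07. Of 17 glycolysis genes 2 were higher (11.8%) and 1 lower (5.88%, median -0.10), and the immediate early list had a median of -0.22. Of 11 snoRNA host genes, 2 were lower (18.2%). Gas5, a non-coding host of small nucleolar RNAs, measured 115, 88.9 and 89 CPM in B6 CD4 and 15.7, 13 and 14 CPM in FlipFlop CD8 libraries (-2.73, standard error 0.13, adjusted p = 3.2e-05). The other host that passed was Snhg3 (-0.52, adjusted p = 0.049), and the median of the list was -0.28. Gas5 was called whichever library was left out, whereas the call of Snhg3 was lost whichever was, with adjusted p-values of 0.0776 to 0.127. Without FlipFlop CD8 library 2 or 3, the STAT and SOCS list had 1 and 0 rises, the methylation list 1 each and the glycosylation list 0 and 2. Without FlipFlop CD8 library 1 or 2, the survival list had 2 rises each, the glycolysis list 1 and 0, and the immediate early list 1 and 0 falls. The fall in the glycolysis list was lost whichever library was left out, and with the TMM factor removed. In that scaling the immediate early list had 2 rises and no fall, and the STAT and SOCS list 6 rises. Without B6 CD4 library 1 the medians of the methylation, STAT and SOCS, and glycosylation lists were 0.06, 0.0042 and -0.02, and the first and last had 1 fall each. Without B6 CD4 library 3 the methylation list also had 1 fall.

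Ribosomal protein genes were examined after their values had been seen. All 25 called members of 81 tested were lower, with a median of -0.53, and their summed share of a library was 17.5% to 22.6% in B6 CD4 and 13.4% to 15.7% in FlipFlop CD8 T cells. With the spread shared over all 12 libraries 77 of the 81 were called, all lower, and without empirical Bayes moderation 1 was. Leaving out 1 library gave 2 to 19 calls, with 2 without FlipFlop CD8 library 3, 3 without library 2 and 10 without library 1. Without B6 CD4 libraries 2 and 3 there were 6 and 9. With the TMM factor removed, the list had 12 falls and a median of -0.37.

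Several protein-coding genes outside the lists also differed widely. Cpne4, of the copine family of calcium-binding proteins, was listed at 0 in all B6 CD4 libraries and measured 13.9, 11 and 15 CPM in FlipFlop CD8 libraries (adjusted p = 6e-06), at least 117.9-fold higher against the floor of 3 reads. Hmga1b, a copy of the chromatin protein gene Hmga1 whose reads may be shared with it, rose from 0.93, 0.412 and 0.391 CPM to 26.3, 58.7 and 24.7 CPM (5.02, adjusted p = 0.00026) and Gm4737 from 1.34, 1.72 and 1.27 CPM to 41, 76.3 and 67 CPM (4.95, adjusted p = 3e-05). Tagap1 rose from 7.93, 5.89 and 4.92 CPM to 36.1, 40.2 and 37.1 CPM (2.53, adjusted p = 0.00018). All of these genes also had higher levels in FlipFlop mice in the cytotoxic lineage, by 5.69 for Cpne4, 4.63 for Hmga1b, 5.16 for Gm4737 and 2.32 for Tagap1. Tmem273 and Atp6v0d2, a subunit of the vacuolar proton pump, rose by 2.51 and 2.47 in the helper lineage (adjusted p = 0.0023 and 0.0013). In the cytotoxic lineage they differed by 0.03 and 0.08, at levels close to 0 in both groups. Mean levels in B6 CD8 and FlipFlop CD4 libraries were 0 and 0.0124 CPM for Tmem273 and 0.162 and 0.21 CPM for Atp6v0d2. A strain difference could therefore hardly show there.

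Among falls, Ddr1, a receptor kinase for collagen, decreased from 13, 15.3 and 17 CPM to 0.643, 0.926 and 0.486 CPM (-3.73, standard error 0.18, adjusted p = 3.4e-05). Zbtb8a decreased from 8.57, 8.17 and 8.21 CPM to 0.482, 0.496 and 0.486 CPM (-3.16, adjusted p = 1.3e-05) and Eps8l1 from 6.8, 7.65 and 13.5 CPM to 0.9, 0.926 and 0.714 CPM (-2.81, adjusted p = 0.00078). F2rl1, a receptor activated by proteases, decreased from 46.8, 61.7 and 63.7 CPM to 11.1, 16.5 and 10.9 CPM (-2.13, adjusted p = 0.00077). In the cytotoxic lineage these genes differed between the strains by -2.49, -2.86, -2.90 and -2.34. Lars2, the mitochondrial leucyl-tRNA synthetase, spread widely within both groups, with 2296, 1338 and 2846 CPM and 654, 139 and 529 CPM (-2.50, adjusted p = 0.027). Its p did not stay under the threshold, being at least 0.05 when any of 3 of the 6 libraries was left out (up to 0.056, without B6 CD4 library 3).

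Other falls were uneven among FlipFlop libraries in the same way in both sorts. Zfp429, a zinc finger gene on chromosome 13, measured 16.5, 17.1 and 17.4 CPM in B6 CD4 and 0.445, 7.73 and 0.56 CPM in FlipFlop CD8 libraries (adjusted p = 0.032). With libraries left out in turn, its adjusted p was at least 0.05 when any of 5 of the 6 libraries was left out (up to 0.11, without FlipFlop CD8 library 3). Library 2 was the exception, and in FlipFlop CD4 cells library 2 was also the highest, at 0.867, 7.84 and 0.536 CPM. Tmem108 and Abhd14b on chromosome 9 had library 2 above the others as well, at 0.257, 1.89 and 0.229 CPM and 0.611, 3.17 and 0.343 CPM in FlipFlop CD8 cells, and the adjusted p of Abhd14b was at least 0.05 when any of 5 of the 6 libraries was left out (up to 0.09, without FlipFlop CD8 library 3). Of the 43 genes for which 1 FlipFlop CD8 library stood more than 2-fold apart from the other 2, 16 showed the same library number apart in FlipFlop CD4 cells.

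The share of genes called in the helper lineage varied by chromosome, and this spread was not tested. Chromosome 17 had the highest share, 117 of 587 (19.9%), followed by chromosome 9 with 114 of 618 (18.4%), and chromosome 3 had the lowest, 51 of 530 (9.62%). Over the tested genes of autosomes and the X chromosome, 348 (3.08%) passed in both strain comparisons in the same direction. In the window of chromosome 17 from 20000001 to 25000000 (GRCm38) 17 of 67 tested genes did (25.4%), and in the window from 5000001 to 10000000 it was 8 of 28 (28.6%), Tagap1 among them. The altered coreceptor loci themselves lie on chromosome 6, where 80 of 554 genes (14.4%) were called. There 7 genes passed the 5-fold limit, the most of any chromosome, with Cd4, Cd8a and Cd8b1 among them.

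Processed pseudogenes were among the largest rises. Gm8730 (chr8:102864845-102865798, minus strand) and Gm9625 (chr13:67810246-67811200, plus strand) are copies of the ribosomal protein gene Rplp0 (chr5:115559467-115563727, plus strand; GRCm38). They measured 9.73, 7.8 and 7.32 CPM and 6.04, 4.83 and 3.67 CPM in B6 CD4 libraries. In FlipFlop CD8 libraries they measured 898, 1660.4 and 781 CPM and 205, 358 and 177 CPM, differences of 6.92 and 5.49 (adjusted p = 1.3e-05 and 3.7e-05). Rplp0 itself fell from 8142, 6748 and 6647 CPM to 3779.9, 2184 and 3145 CPM (-1.27, adjusted p = 0.0092). The sum of Rplp0 and its 4 tested pseudogenes ran from 6658 to 8159 CPM in B6 CD4 and from 4119 to 4899 CPM in FlipFlop CD8 libraries, and pseudogenes held 0.193% and 31.3% of it. The deposited values do not say how reads that match more than 1 copy were assigned. A value was taken as whole reads where it lay within 0.005 of a multiple of what 1 read is worth in its library. Only 7.38% of the values of processed pseudogenes under 100 CPM were whole in B6 CD4 and 7.35% in FlipFlop CD8 libraries, compared with 90% and 89.3% for protein-coding genes. The copies differ from their parent at few positions, as the stretch from base 67 to 138 of the Rplp0 coding sequence shows, read from GENCODE M21 transcripts on the coding strand. Capitals mark, in the parent, each position at which a copy differs and, in a copy, each base that differs from the parent.
Rplp0: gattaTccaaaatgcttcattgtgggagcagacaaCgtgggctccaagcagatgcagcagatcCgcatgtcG
Gm8730: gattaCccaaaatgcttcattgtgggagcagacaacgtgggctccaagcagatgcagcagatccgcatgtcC
Gm9625: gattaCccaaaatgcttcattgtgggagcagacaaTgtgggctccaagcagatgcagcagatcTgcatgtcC
Counted from the start of the coding sequence, Gm8730 carries T72C and G138C here, and Gm9625 also carries C102T and C130T. Over the coding sequence of 951 bases, Gm8730 differs from Rplp0 at 12 positions and Gm9625 at 24.

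The Rpl29 family was split differently between its copies in both groups. Rpl29 (chr9:106429454-106431568, plus strand), a ribosomal protein gene, measured 1309, 986 and 994 CPM in B6 CD4 and 48.5, 441 and 42.3 CPM in FlipFlop CD8 libraries (-3.48, standard error 0.79, adjusted p = 0.029). With libraries left out in turn, its adjusted p was at least 0.05 when any of 5 of the 6 libraries was left out (up to 0.097, without FlipFlop CD8 library 3). FlipFlop CD8 library 2 kept an intermediate level, as did library 2 of FlipFlop CD4 cells, at 60.3, 591 and 54.5 CPM. The pseudogene Gm8210 (chr1:43189156-43189638, plus strand) was listed at 0 in B6 CD4 and measured 382, 138 and 59 CPM in FlipFlop CD8 libraries (adjusted p = 0.00026). Gm13841 (chr5:115801677-115802159, minus strand) rose from 0.27, 0.166 and 0.366 CPM to 19.1, 31.3 and 273 CPM (6.18, adjusted p = 0.0045). Gm8210 was highest in FlipFlop CD8 library 1 and Gm13841 in library 3. The copy Gm6344 (chr13:55085777-55086259, plus strand) fell from 3.87, 2.41 and 2.1 CPM to 0, 1.25 and 0 CPM and had signal in FlipFlop CD8 library 2 only (-2.08, adjusted p = 0.031). With libraries left out in turn, its adjusted p was at least 0.05 when any of 4 of the 6 libraries was left out (up to 0.11, without FlipFlop CD8 library 3). The copies are shown over bases 383 to 454 of the Rpl29 coding sequence, the stretch that separates all of them from the parent.
Rpl29: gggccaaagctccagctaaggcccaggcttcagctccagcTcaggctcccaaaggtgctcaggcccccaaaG
Gm8210: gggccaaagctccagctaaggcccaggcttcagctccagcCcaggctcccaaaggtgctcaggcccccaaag
Gm13841: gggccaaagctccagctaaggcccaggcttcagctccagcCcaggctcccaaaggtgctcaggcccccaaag
Gm6344: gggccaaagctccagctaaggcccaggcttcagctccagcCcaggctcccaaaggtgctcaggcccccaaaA
Capitals are used as above. Within the 480 coding bases, Gm8210 and Gm13841 carry the same 3 substitutions (C72A, C300T and T423C), so the split between these 2 copies is uncertain, and Gm6344 carries C300T, T423C and G454A. Summed over Rpl29 and its 4 tested pseudogenes, the family ran from 992 to 1316 CPM in B6 CD4 and from 378 to 616 CPM in FlipFlop CD8 libraries.

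Rises of copies beside lower parents were also seen in other families. Gm9825 (chr6:7982541-7983383, minus strand), a copy of the splicing regulator Rnps1, rose from 0.19, 0.0733 and 0.105 CPM to 36.5, 32.9 and 34.2 CPM (5.82, adjusted p = 3.9e-07), while Rnps1 fell from 136, 114 and 109 CPM to 65.1, 62.7 and 65 CPM (-0.89, adjusted p = 0.0019). Their sum ran from 109 to 136 CPM in B6 CD4 and from 95.5 to 102 CPM in FlipFlop CD8 libraries. Gm4864, a copy of the histone deacetylase gene Hdac1, was listed at 0 in B6 CD4 and measured 23.2, 23.4 and 22.7 CPM in FlipFlop CD8 libraries (adjusted p = 3.9e-07). Hdac1 with its 3 tested pseudogenes summed to 167 to 193 CPM in B6 CD4 and 177 to 184 CPM in FlipFlop CD8 libraries, a ratio of 0.999 between the group means, although Hdac1 alone had a ratio of 0.81 (adjusted p = 0.052).

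**Figure D4:**
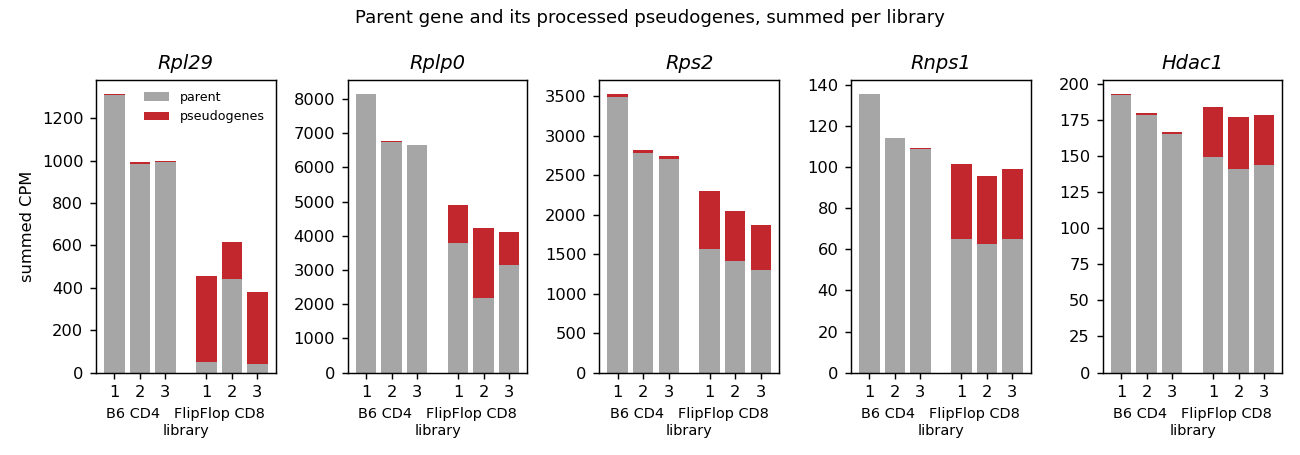
Summed CPM of 5 parent genes (grey) and their tested processed pseudogenes (red) in each of the 3 B6 CD4 and 3 FlipFlop CD8 libraries; bars start at 0 and each panel has its own scale. Pseudogenes hold 0.558% of the Rpl29 family in B6 CD4 and 63.2% in FlipFlop CD8 libraries, and 0.615% and 19.4% of the Hdac1 family.

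Of the 25 pseudogenes that were higher, 24 matched a parent transcript, with a median identity of 99.1%, and these 24 had 15 distinct parents. The parent measured lower in FlipFlop CD8 T cells for 22 of the 24, but this was also so for 182 of the 203 matched pseudogenes that were not called. Of the 15 that were lower, 13 were copies of ribosomal protein genes, with a median difference of -0.58 beside -0.59 for their parents. Gm10275 is an example, at 33.8, 25.8 and 24.6 CPM and 19.1, 18.3 and 14.6 CPM (-0.68, adjusted p = 0.027), and its parent Rpl12 fell by 0.65 (adjusted p = 0.045). The adjusted p was at least 0.05 when any of 3 of the 6 libraries was left out (up to 0.094, without FlipFlop CD8 library 3) for Gm10275 and at least 0.05 when any of 5 of the 6 libraries was left out (up to 0.16, without FlipFlop CD8 library 3) for Rpl12. The number of rises was 22 to 26 with any library left out, but the number of falls was 3 without FlipFlop CD8 library 2 or 3, 8 without B6 CD4 library 1 and 10 without FlipFlop CD8 library 1. With the TMM factor removed, 25 rose and 7 fell.

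The second strain comparison, FlipFlop CD4 against B6 CD8 T cells, called 959 of the same 11325 genes (8.47%), and 349 were called in both comparisons in the same direction, 22.8% of the helper calls and 36.4% of the cytotoxic ones. The cytotoxic count was 330 without B6 CD8 library 2, 406 without B6 CD8 library 3, 492 without FlipFlop CD4 library 2 and 597 without FlipFlop CD4 library 3. All 25 risen pseudogenes were higher there too, 23 of them past the threshold, and over 250 pseudogenes the differences in both lineages correlated with r = 0.928 (Pearson) and rho = 0.401 (Spearman), a description across genes, which are not independent. For 10504 protein-coding genes r was 0.344 and rho 0.474. Among protein-coding calls, 655 of 890 rises (73.6%) and 442 of 507 falls (87.2%) had the same sign. All 22 called TCR segments but 1 had the opposite sign.

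The difference between both strain contrasts, tested over all 12 libraries, was past the threshold for 584 genes (5.16%), 393 of them more positive in the helper lineage. Same-numbered libraries deviated together in FlipFlop, and less clearly in B6 (correlations of 0.183, 0.101 and 0.35). With strain and replicate number as a block the test called 900 genes. This block was chosen after seeing the data. Without the block it called 360 to 368 genes when FlipFlop CD4 library 2, B6 CD8 library 2 or 3, or FlipFlop CD8 library 2 was left out. Of the 25 risen pseudogenes none was called in either fit. Of the memory and effector list, 16 of 26 genes were called (21 with the block), with a median of -0.44 in the cytotoxic lineage beside 0.99 in the helper lineage. Cxcr6 differed by -1.70 and Ccr2 by -1.97 in the cytotoxic contrast. Of the Treg list, 11 of 23 genes were (15 with the block), with a median of 0.09 in the cytotoxic lineage; Foxp3 differed there by 0.80 (adjusted p = 0.074) and the difference between its contrasts, 0.80, had an adjusted p of 0.14 without the block and 0.045 with it. Of 30 cell cycle genes 5 were called, and 14 with the block. For Il2ra the adjusted p was 0.048 without the block and 0.055 with it, and for Zbtb7b, whose contrasts differed by -0.67, it was 0.079 and 0.049.

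**Figure D5:**
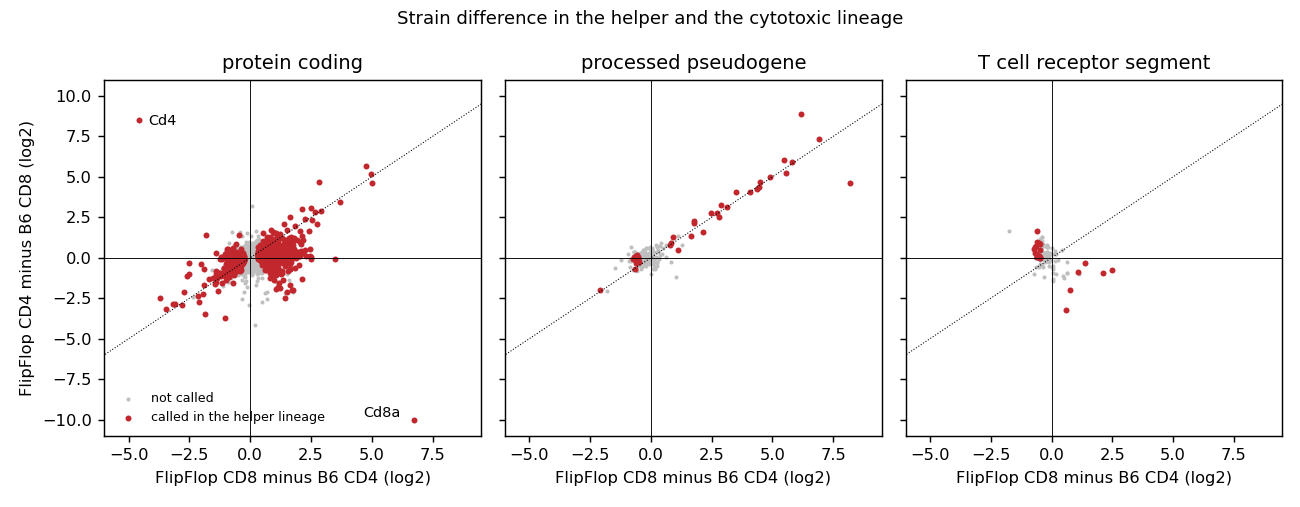
Difference between the strains in the helper lineage (FlipFlop CD8 minus B6 CD4, horizontal) and in the cytotoxic lineage (FlipFlop CD4 minus B6 CD8, vertical), both on the log2(CPM + 0.5) scale, for protein-coding genes, processed pseudogenes and TCR segments; red points passed in the helper lineage and the dotted line marks equal differences. Most called pseudogenes that rose lie near the dotted line, apart from Gm8210 below it and Gm13841 above it, and called TCR segments lie in the opposite quadrants with 1 exception.

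Called TCR gene segments were mostly lower in FlipFlop CD8 T cells. Trbv31, a variable segment of the β chain, fell from 57.4, 48.8 and 50.3 CPM to 35.3, 32.5 and 33.6 CPM (-0.62, adjusted p = 0.0059), and Trbv12-2 rose from 8, 7.17 and 7.32 CPM to 12.1, 12.5 and 15.2 CPM (0.78, adjusted p = 0.0068). In the cytotoxic lineage they went the other way, by 1.64 and -2.01. Of the 16 that fell, 11 were variable segments of the α chain, such as Trav9n-4, from 11.1, 11.5 and 11.7 CPM to 7.09, 6.74 and 7.26 CPM (-0.67, adjusted p = 0.0051). Many of these segments have near-identical copies, and only 44.4% and 39.7% of their values under 100 CPM were whole reads in both groups, so single segments are uncertain. Without B6 CD4 library 2, 4 segments were lower and 5 higher. It was 9 and 7 without FlipFlop CD8 library 1, 5 and 5 without library 2, 6 and 5 without library 3, and 10 and 6 without B6 CD4 library 3. With the TMM factor removed, 4 were lower and 8 higher.

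Markers of other cell types were detected in both groups, and the called ones moved in both directions. For innate-like T cells, 5 of 8 markers were higher, led by Zbtb16, which encodes their factor PLZF and measured 0.263, 0.323 and 0.0613 CPM in B6 CD4 and 4.31, 10.2 and 9.29 CPM in FlipFlop CD8 libraries (3.49, adjusted p = 0.0009). In the cytotoxic lineage Zbtb16 differed by -0.06, with at most 0.0663 CPM in any library, so a strain difference could hardly show there. Klrb1c, encoding NK1.1, rose from 3.57, 4.26 and 2.73 CPM to 10.5, 11.8 and 10.2 CPM (1.51, adjusted p = 0.0016); it is the single NK cell marker of 4 tested that passed, and the summed NK markers ran from 12.8 to 14.7 CPM and from 22 to 38 CPM. For γδ T cells, the constant genes Tcrg-C1, Tcrg-C2 and Tcrg-C4 rose by 1.10, 2.13 and 2.48 (adjusted p = 0.0085, 0.0014 and 0.00083), and Trdc, the δ chain constant gene, fell from 11.4, 10.8 and 8.76 CPM to 6.49, 7.28 and 7.32 CPM (adjusted p = 0.036), with an adjusted p of at least 0.05 when any of 5 of the 6 libraries was left out (up to 0.11, without FlipFlop CD8 library 2). Summed γδ markers ran from 14.3 to 18.7 CPM and from 28.3 to 29.7 CPM. These γ genes are paralogs, and the split of reads between them was not examined. The part of such cells in the rise of memory genes was not tested. Without FlipFlop CD8 library 1 or 2, 3 innate-like markers were higher.

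Of 11 B cell markers 4 were lower, and the summed markers ran from 602 to 641 CPM in B6 CD4 and from 599 to 729 CPM in FlipFlop CD8 libraries. Of 9 myeloid and dendritic cell markers 4 were lower, among them the MHC class II gene H2-Ab1 at 32.2, 31.4 and 43.2 CPM and 22, 16 and 16.1 CPM. The sums of these markers were 252 to 356 CPM and 176 to 217 CPM. All 4 hemoglobin genes tested were lower, with sums of 22.1 to 28.8 CPM in B6 CD4 and 9.62 to 14.2 CPM in FlipFlop CD8 libraries, and 2 of them passed without B6 CD4 library 1 or 2 or FlipFlop CD8 library 2 or 3. Of 5 plasma cell markers 1 was higher, Prdm1, which T cells also express (0.82, adjusted p = 0.037). Of the stromal markers only Pecam1, which T cells also express, was tested, and it was not called. Of 12 T cell markers 3 were lower, among them Trac, from 1069, 919.6 and 859.6 CPM to 754, 655 and 649 CPM (-0.47, adjusted p = 0.037). No T cell marker was lower without FlipFlop CD8 library 2 or 3, 2 were without library 1, and 1 was without B6 CD4 library 2 or with the TMM factor removed. The adjusted p was at least 0.05 when any of 4 of the 6 libraries was left out (up to 0.13, without FlipFlop CD8 library 2) for Prdm1 and at least 0.05 when any of 4 of the 6 libraries was left out (up to 0.15, without FlipFlop CD8 library 2) for Trac. Only 2 B cell and 2 myeloid markers were lower without FlipFlop CD8 library 3. The part of these cells in other differences was not tested.

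Among genes of other types, the long non-coding RNA Gm7292 rose from 0, 0.332 and 0 CPM to 6.15, 10.4 and 12.2 CPM (4.03, adjusted p = 0.00036). The long non-coding RNA Gm36723 rose from 0, 0.161 and 0.153 CPM to 2.67, 4.5 and 5.72 CPM (2.94, adjusted p = 0.00094). Gm7292 also rose in the cytotoxic lineage, by 4.02, and Gm36723 differed there by 0.03. AC165951.1 was listed at 0 in B6 CD4 and measured 5.46, 4.56 and 2.89 CPM in FlipFlop CD8 libraries (adjusted p = 0.00031), at least 38.19-fold higher. It is annotated as antisense, and the strand used in counting is not given in the sources used here. The pseudogene Gm4956 fell from 12.1, 11.1 and 9.83 CPM to 0.0321, 1.65 and 0.286 CPM (-3.57, adjusted p = 0.0035).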

How the data were processed

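RNA of sorted LN T cells was sequenced as paired-end libraries made with a SMARTer low-input kit, in 3 libraries for each of 4 sorted populations. The authors deposited 1 table of expression signal per gene, in CPM multiplied by TMM factors, so that columns do not share a total. The study's methods name STAR and mm10, and the submitters' processing notes name Trimmomatic and TopHat, whereas the counting program, annotation and filter are not given in the sources used here. Of values under 100 CPM, 84.8% to 86.4% by library were whole reads, and the rest were fractions of a read. Whole counts were therefore not recovered for all genes, and no count test was run.

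Genes reaching 1 CPM in 3 or more helper libraries were tested on the log2(CPM + 0.5) scale with limma 3.58.1 in R 4.3.3 (empirical Bayes, Benjamini-Hochberg adjustment, no covariate), which understates changes of low genes. Tested on simulated data of 11325 genes for the same comparison, it recovered 25 of 57 genes changed 1.5-fold, 67 of 72 changed 2-fold and 70 of 71 changed 5-fold. All 12809 gene identifiers matched GENCODE M21, whose gene types separated pseudogenes, and parents were found with blastn 2.17.0 at a minimum identity of 80%. Members and gene lists were chosen with earlier results of these data known.

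The genes named were the defining gene and up to 4 largest changes of each list, the 12 largest protein-coding rises and falls of at least 5 CPM whose groups did not overlap, the 6 largest pseudogene rises and falls with their parents, the 5 largest of TCR segments and the 3 largest of other types in each direction, of which the text gives a part. Within a strain, deviations from group means of same-numbered libraries correlated across genes at 0.449, 0.273 and 0.523 (FlipFlop) and 0.183, 0.101 and 0.35 (B6). Numbers were used as a pairing there, although unlike numbers were not compared in B6, so a pairing is not shown in that strain. Between FlipFlop CD8 and B6 CD4 libraries, deviations of same-numbered libraries did not all correlate. Some members of the lists are counted but not reported here by name. Alternatives were other pseudocounts, filters, scalings, fits and libraries left out.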

Additional observations from a re-analysis of the deposited data

Results flagged for a closer look

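For 46 of the 107 genes named with values, the difference between the strains was itself different in both lineages (limma over all 12 libraries, adjusted p under 0.05). With strain and replicate number as a block it was so for 53 of the 107 genes, 45 of them the same, and the call of Il2ra was lost. Over all tested genes, the test without the block called 584 of 11325 (5.16%). Values are the helper difference minus the cytotoxic difference on the log2 scale. The named genes were chosen largely by the size of the helper difference, which is part of these values. Their share of calls and their signs are therefore partly set by that choice. Among coreceptors, the value was -13.10 for Cd4, 16.77 for Cd8a and 2.56 for Cd8b1.

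Among the named genes, the difference was positive for many memory, trafficking and innate-like genes. It was 3.43 for Ly6c2, 2.47 for Ahnak, 1.13 for Cd44, 3.35 for Cxcr6, 3.75 for Ccr2, 3.75 for Gpr15, 1.41 for Ccr9, 1.78 for Il2rb, 2.72 for Itgae and 1.04 for Itgb1. It was 3.11 for Klrk1, 0.83 for Crtam, 1.67 for Klrb1c, 3.55 for Zbtb16, 0.60 for Id2 and 0.50 for Icos. The γ chain constant genes had 1.97 (Tcrg-C1), 3.05 (Tcrg-C2) and 3.24 (Tcrg-C4). Of Treg genes, Ikzf2 had 1.69 and Il2ra 0.94, and of cell cycle genes, Aurkb had 1.26 and Ccnb1 1.35. Tmem273, Atp6v0d2 and Gm36723 had 2.48, 2.39 and 2.91. Zbtb16, Tmem273 and Atp6v0d2 were close to 0 in both cytotoxic groups, so their values rest on the helper difference.

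Other named genes had a negative difference. It was -1.87 for Cd40lg, -1.63 for Igfbp4, -1.24 for Dapl1, -0.85 for Lef1, -0.58 for Ccr7 and -1.44 for Itgb3. It was -0.57 for Cd5, -0.60 for Cd247, -0.54 for Trac and -0.74 for Nr4a1, the last of which was not called in the helper lineage. H2-T10 had -0.75, Ddr1 -1.23, Cpne4 -0.92 and Gm4956 -3.20. TCR segments went both ways, and Trbv12-2 had 2.79, Trbv31 -2.25 and Trav9n-4 -1.35.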

How the results depend on the processing

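The 1530 calls became 950 among genes of at least 5 CPM on average, 492 at an adjusted p under 0.01 and 468 with more than 2-fold. Without empirical Bayes moderation there were 376, with a shared spread over all 12 libraries 3206, and with 1 library left out 642 to 1581. Without FlipFlop CD8 library 2 and B6 CD4 library 1 together, chosen after seeing the data, there were 852. The 45 genes over 5-fold became 28 at 5 CPM, 18 without moderation, 71 by the ratio of mean CPM and 43 to 52 with 1 library left out. The 40 pseudogenes became 26 at 5 CPM, 20 without moderation and 26 to 38 with 1 library left out. The 959 cytotoxic calls became 254 without moderation and 330 to 1085 with 1 library left out. The 584 differences between the lineages became 312 at 5 CPM, 388 without moderation and 360 to 562 with 1 library left out. For the named genes, 95 of which were called, the number was 43 without moderation and 71 to 86 with 1 library left out. By list, with the spread shared over all 12 libraries there were 11 falls in place of 6 for MHC class I, 4 in place of 1 for glycolysis, 7 rises in place of 3 for integrins and 5 in place of 2 for cytotoxic genes, and the helper effector list had 12 rises and no fall, without the call of Cd40lg. Without moderation 10 Treg, 3 memory, 3 helper effector and 1 follicular helper genes were higher, and none of the genes of TCR signal, CD3 signaling, integrins, glycolysis, the immediate early list or cytotoxicity was called. The cause of these shifts was not tested.

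With replicate number as a block, 2634 genes and 77 pseudogenes were called in the helper lineage and 498 genes in the cytotoxic one, but the numbers are not shown to pair FlipFlop CD8 with B6 CD4 libraries (correlations of 0.19, 0.038 and 0.197). With the block, the ribosomal list had 80 falls, the signaling list 7 and the interferon list 6 with 1 rise. The balance of calls was 1321 higher and 1313 lower. The block within each strain, chosen after seeing the data, gave 900 differences between the lineages. With the columns rescaled to the same total, 3 differences that passed in neither fit changed sign, to 0.0059 for Runx3, 0.036 for Cd3e and 0.12 for Lck. Named differences kept their direction under all other alternatives. At the depth of 27200000 reads or more in the helper libraries, a count of 0 allows a level of up to 0.113 CPM, by counting error alone.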

Other observations

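Other families of parents and processed pseudogenes, chosen after their values were seen, differed in how the summed level behaved. Rps2, a ribosomal protein gene, measured 3497, 2785 and 2707 CPM in B6 CD4 and 1564, 1413 and 1298 CPM in FlipFlop CD8 libraries (-1.07, adjusted p = 0.0036), and pseudogenes held 1.1% and 31.3% of the family. Atp6v0c, a subunit of the vacuolar proton pump, measured 224, 178 and 182 CPM and 120.5, 105 and 103 CPM (-0.82, adjusted p = 0.0045), with a pseudogene share of 0.227% and 19.6%. Glo1, an enzyme that removes methylglyoxal, went the other way, from 82.6, 67.6 and 69.4 CPM to 147, 154 and 107 CPM (0.88, adjusted p = 0.01), while the pseudogene share rose from 0.128% to 8.67%. None of the 15 mitochondrially encoded genes tested passed the adjusted p of limma in the helper comparison, and 1 was higher at an unadjusted p under 0.05.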
